A study of Homo sapiens with 29 samples.

Results

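The genes described here are the epidermal growth factor receptor EGFR and 7 genes that encode growth factors of the EGF family, namely AREG (amphiregulin), EREG (epiregulin), HBEGF (heparin-binding EGF-like growth factor), TGFA (transforming growth factor alpha), BTC (betacellulin), EPGN (epigen) and NRG1 (neuregulin 1). They were taken by name, 8 of the 28266 genes in the count table. Their messenger RNA levels come from sequencing of IMR90 ER:RAS cells, human lung fibroblasts of an established line into which a retrovirus brought oncogenic RAS fused to the ligand-binding domain of the estrogen receptor. By their labels all 3 groups carried this fusion, of which 1 DMSO_siNT library showed few reads (given with the depth of the libraries), and all received an siRNA by reverse transfection one day before treatment, and RNA was collected on day 7. The group DMSO_siNT (n = 6) received non-targeting siRNA and the solvent DMSO, so that the fusion was not switched on. The group 4OHT_siNT (n = 6) received non-targeting siRNA and 4-hydroxytamoxifen (4OHT), which switches the fusion on and drives oncogene-induced senescence. The group 4OHT_siSMARCA4 (n = 6) received 4OHT and siRNA against SMARCA4, an ATPase of the SWI/SNF chromatin remodelling complex. Each arm used an siRNA numbered 2 and another numbered 4, and libraries are named here by that number and their set label, such as 4-2V. What V and VM mean is not stated. Libraries with different siRNAs came from separately transfected cells, but nothing says that libraries with the same siRNA came from separate cultures. P-values therefore set differences between groups against the spread between these libraries, which includes differences between siRNAs and between sets.

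EGF family ligands are made as membrane-anchored precursors that metalloproteases of the ADAM family cut free. AREG, EREG, HBEGF, TGFA, BTC and EPGN bind EGFR, and EREG, HBEGF and BTC bind ERBB4 as well, while NRG1 binds ERBB3 and ERBB4 and reaches EGFR only as a partner within receptor pairs. Ligand binding joins receptors in pairs, which then signal through adaptor proteins to RAS and the MAP kinase cascade. That cascade is known to raise the transcription of several of the ligands, and ligands of this family are among the factors that senescent fibroblasts secrete.

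Coordinates are those of GRCh38 in the GENCODE annotation. EGFR spans chr7:55019017-55211628 on the plus strand and HBEGF chr5:140332843-140346603 on the minus strand. EPGN (chr4:74308470-74316789), EREG (chr4:74365145-74388749) and AREG (chr4:74445136-74455005), all on the plus strand, and BTC (chr4:74744759-74794523), on the minus strand, form a cluster of 486.1 kb on chromosome 4. EREG begins 48.4 kb after EPGN ends, AREG begins 56.4 kb after EREG, and BTC follows AREG after 289.8 kb. TGFA spans chr2:70447284-70554193 on the minus strand. EGFR shares 186 bases of exon with EGFR-AS1, an antisense RNA on the other strand. Whether reads were counted by strand is not stated, but EGFR-AS1 held 0 to 19 counts per library, at most 0.338% of the counts of EGFR in the same library.

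Of the 8 genes, 7 had an entry in the RefSeq promoter table (GRCh38.p14), and NRG1 had none. The 250 bases before the annotated start are shown for EGFR, at chr7:55018767-55019016 (plus strand), AREG, at chr4:74444886-74445135 (plus strand), EREG, at chr4:74364895-74365144 (plus strand), and HBEGF, at chr5:140346604-140346853 (minus strand), because AREG and EREG had the largest rises among the EGFR ligands and EGFR and HBEGF the smallest among the genes tested. Sequences run 5′ to 3′ on the strand of the gene. Capitals mark matches, on either strand, to the AP-1 motif TGANTCA, the cyclic AMP response element TGACGTCA, the ETS motif CCGGAA, the GC box GGGCGG and the TATA motif TATAAA.
EGFR: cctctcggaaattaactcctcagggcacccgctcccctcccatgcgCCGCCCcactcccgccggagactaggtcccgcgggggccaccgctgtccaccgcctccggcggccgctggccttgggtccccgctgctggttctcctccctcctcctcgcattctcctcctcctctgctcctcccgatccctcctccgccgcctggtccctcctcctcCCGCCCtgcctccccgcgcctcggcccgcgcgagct
AREG: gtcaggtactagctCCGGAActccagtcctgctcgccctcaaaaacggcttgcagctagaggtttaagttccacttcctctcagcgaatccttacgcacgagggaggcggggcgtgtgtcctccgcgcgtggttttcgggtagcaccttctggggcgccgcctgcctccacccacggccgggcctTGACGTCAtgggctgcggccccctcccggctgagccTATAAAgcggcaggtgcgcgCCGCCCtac
EREG: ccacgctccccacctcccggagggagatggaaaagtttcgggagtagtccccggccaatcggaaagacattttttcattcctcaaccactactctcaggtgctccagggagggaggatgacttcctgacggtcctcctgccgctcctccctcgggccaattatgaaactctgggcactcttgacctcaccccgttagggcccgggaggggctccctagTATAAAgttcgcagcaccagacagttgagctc
HBEGF: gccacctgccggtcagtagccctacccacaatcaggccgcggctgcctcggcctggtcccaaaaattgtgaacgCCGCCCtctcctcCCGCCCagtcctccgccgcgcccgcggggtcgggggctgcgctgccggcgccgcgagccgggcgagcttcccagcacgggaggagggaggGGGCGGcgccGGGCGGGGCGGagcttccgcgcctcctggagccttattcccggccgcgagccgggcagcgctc
None of the 4 windows held the AP-1 motif, which 6.57% of 35116 promoter windows of this length held. The AREG window held the cyclic AMP response element, found in 1.65% of windows and the same on both strands, with its first base 65 bases before the start. AREG also had the ETS motif, found in 14.5% of windows, 236 bases before the start. The TATA motif, found in 10.7% of windows, stood 29 bases before the start of AREG and 32 bases before that of EREG. GC boxes, found in 42.6% of windows, numbered 2 in EGFR, 1 in AREG, 0 in EREG and 5 in HBEGF, where a pair of them overlapped. A match is a match of letters and no evidence of binding.

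Total counts ranged from 9657309 to 18039313 per library. SMARCA4 itself was 301 ± 20.9 CPM (counts-per-million on the TMM scale, SD, n = 6) in 4OHT_siNT and 99.0 ± 27.6 CPM in 4OHT_siSMARCA4, with no overlap between the groups. Libraries were not balanced over set labels. All 6 4OHT_siNT libraries were VM, DMSO_siNT had 3 V and 3 VM, and 4OHT_siSMARCA4 had 3 V, 2 VM and 1 called 2-unlabelled. The column name of 2-unlabelled reads 1VM, but no sample title with its siRNA has that set, so it was given no set. One library stood apart. DMSO_siNT 4-2V held 29.5 CPM of ESR1, the estrogen receptor gene whose reads include those of the fusion, against 1034 to 1316 CPM in the other 5 DMSO_siNT libraries, and 436 CPM of HRAS against 2165 to 2852 CPM. It also had the lowest total. The call of every tested gene with and without it is given below. All 9 fibroblast markers averaged over 1 CPM in every group. Their summed level was 15259 to 39755 CPM in DMSO_siNT, 19796 to 31378 CPM in 4OHT_siNT and 10689 to 18751 CPM in 4OHT_siSMARCA4. Medians were 37360, 25996 and 14020 CPM, and the lowest DMSO_siNT sum was that of 4-2V, the library that stood apart. Markers did not move alike. Mean DCN was 625 CPM in DMSO_siNT and 17.4 CPM in 4OHT_siNT, and mean VIM was 6359 and 6792 CPM. The 5 epithelial markers summed to at most 11.4 CPM and the 4 leukocyte markers to at most 0.478 CPM in any library, and the 4 endothelial markers to 1.36 to 7.35 CPM. The part of these marker levels in the results below was not tested. In bulk RNA, fewer cells that express a gene and less RNA per cell cannot be told apart.

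Senescence was compared first, 4OHT_siNT against DMSO_siNT. EGFR and 4 of its family's ligand genes, AREG, EREG, HBEGF and NRG1, rose in 4OHT_siNT, from 1.59-fold for HBEGF to 81.3-fold for AREG. These were the 5 of the 8 genes that passed the filter on low counts, and all 5 were called higher at an adjusted p under 0.05 (quasi-likelihood test of edgeR, Benjamini-Hochberg over all 13136 genes tested), as were 23.9% of all genes tested. For EGFR, AREG, EREG and NRG1 every 4OHT_siNT library lay above every DMSO_siNT library, which held for 17.0% of genes tested. Without DMSO_siNT 4-2V the same 5 genes were called higher, as were 27.9% of all genes tested in that fit.

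EGFR, the receptor tyrosine kinase of the family, had 106 (4-2V), 123 (4-3VM), 198 (4-2VM), 209.9 (2-2VM), 240.5 (2-1V) and 252 CPM (2-2V) in DMSO_siNT. In 4OHT_siNT it ranged from 339.7 (2-2VM) to 449 CPM (2-1VM), with a median of 353 CPM. The groups did not overlap. Within DMSO_siNT the 3 libraries with siRNA 4 (142 ± 49.1 CPM, n = 3) were all below the 3 with siRNA 2 (234 ± 21.7 CPM, n = 3). That split was not tested. Means were 188 ± 60.6 and 371 ± 40.9 CPM (SD, n = 6), a log2 difference of 0.98 ± 0.20 (SE, adjusted p = 0.000406), or 1.97-fold. Without DMSO_siNT 4-2V the difference was 0.87 ± 0.17 (adjusted p = 0.000169).

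AREG, a ligand of EGFR alone, was close to absent in DMSO_siNT, with 32 to 87 counts per library. It measured 2.28 (2-1V), 2.72 (2-2V), 3.21 (4-2VM), 5.24 (4-3VM), 5.50 (4-2V) and 6.21 CPM (2-2VM) there. In 4OHT_siNT it measured 281 (2-1VM), 291 (4-1VM), 365 (2-3VM), 365 (4-3VM), 366 (2-2VM) and 371 CPM (4-2VM). Every senescent library was thus far above every DMSO_siNT library, and the 1VM libraries of both siRNAs were the lower ones among the senescent libraries. Means were 4.19 ± 1.65 and 339.9 ± 42.0 CPM, a log2 difference of 6.35 ± 0.26 (adjusted p = 5.54e-13), and 6.43 ± 0.25 without DMSO_siNT 4-2V (adjusted p = 2.28e-14).

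EREG, which binds EGFR and ERBB4, ranged from 20.5 (2-2VM) to 36.7 CPM (4-2V) in DMSO_siNT, with a median of 24.9 CPM. Its 4OHT_siNT values were 252 (4-1VM), 273 (4-3VM), 296 (4-2VM), 309 (2-1VM), 343 (2-2VM) and 374 CPM (2-3VM). The highest DMSO_siNT value was that of the library that stood apart, and the 3 libraries with siRNA 2 were above the 3 with siRNA 4 in 4OHT_siNT. Means were 25.99 ± 5.73 and 308 ± 44.9 CPM, a log2 difference of 3.57 ± 0.14 (adjusted p = 4.39e-13), or 11.9-fold. Without DMSO_siNT 4-2V it was 3.69 ± 0.11 (adjusted p = 1.18e-15).

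NRG1, the ligand of ERBB3 and ERBB4, had 32.7 to 53.7 CPM in DMSO_siNT, with a median of 34.8 CPM. In 4OHT_siNT it had 289 (2-3VM), 330.5 (2-2VM), 370.4 (2-1VM), 448 (4-1VM), 497 (4-3VM) and 661 CPM (4-2VM). The groups were far apart, and here the 3 libraries with siRNA 4 were above the 3 with siRNA 2, the opposite order to EREG. Means were 38.9 ± 8.52 and 433 ± 135 CPM, a log2 difference of 3.48 ± 0.22 (adjusted p = 1.23e-10), or 11.1-fold. It was 3.44 ± 0.22 without DMSO_siNT 4-2V (adjusted p = 4.96e-11).

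HBEGF, a ligand of EGFR and ERBB4, had 21.6 (4-2V), 27.3 (2-1V), 34.5 (2-2V), 40.7 (4-2VM), 54.7 (2-2VM) and 56.1 CPM (4-3VM) in DMSO_siNT and 52.7 (2-1VM), 58.2 (4-1VM), 59.0 (2-3VM), 59.4 (2-2VM), 72.3 (4-2VM) and 72.5 CPM (4-3VM) in 4OHT_siNT. The groups overlapped, and within DMSO_siNT the 3 V libraries (27.8 ± 6.45 CPM, n = 3) were all below the 3 VM libraries (50.5 ± 8.49 CPM, n = 3). Means of the groups were 39.2 ± 14.1 and 62.3 ± 8.16 CPM, a log2 difference of 0.67 ± 0.22 (adjusted p = 0.0150), which became 0.55 ± 0.20 without DMSO_siNT 4-2V (adjusted p = 0.0204). All 4OHT_siNT libraries were VM, and the VM libraries alone gave 0.30 with an adjusted p of 0.191, so the call did not hold there.

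TGFA, BTC and EPGN, all ligands of EGFR, were too low to test. TGFA had 0, 3, 0, 0, 1 and 1 counts in the 6 DMSO_siNT libraries. In 4OHT_siNT it had 2, 8 and 7 counts in the 3 libraries with siRNA 2 and 1, 0 and 0 in the 3 with siRNA 4, and in 4OHT_siSMARCA4 it had 1 count in 1 library. BTC had at most 1 count and EPGN at most 3 counts in any library. A limit of 3 counts corresponded to 0.168 to 0.359 CPM, so levels below that could not be told from 0 at this depth. EREG and AREG therefore reached 223 CPM or more in every senescent library while EPGN and BTC, at the ends of the same cluster, stayed at or under that limit. The nearest tested genes outside the cluster were MTHFD2L, with a log2 difference of 0.61 (adjusted p = 0.0560), and PARM1, with 1.96 (adjusted p = 0.00164), both chosen by position after the values of the cluster were seen.

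**Figure D1:**
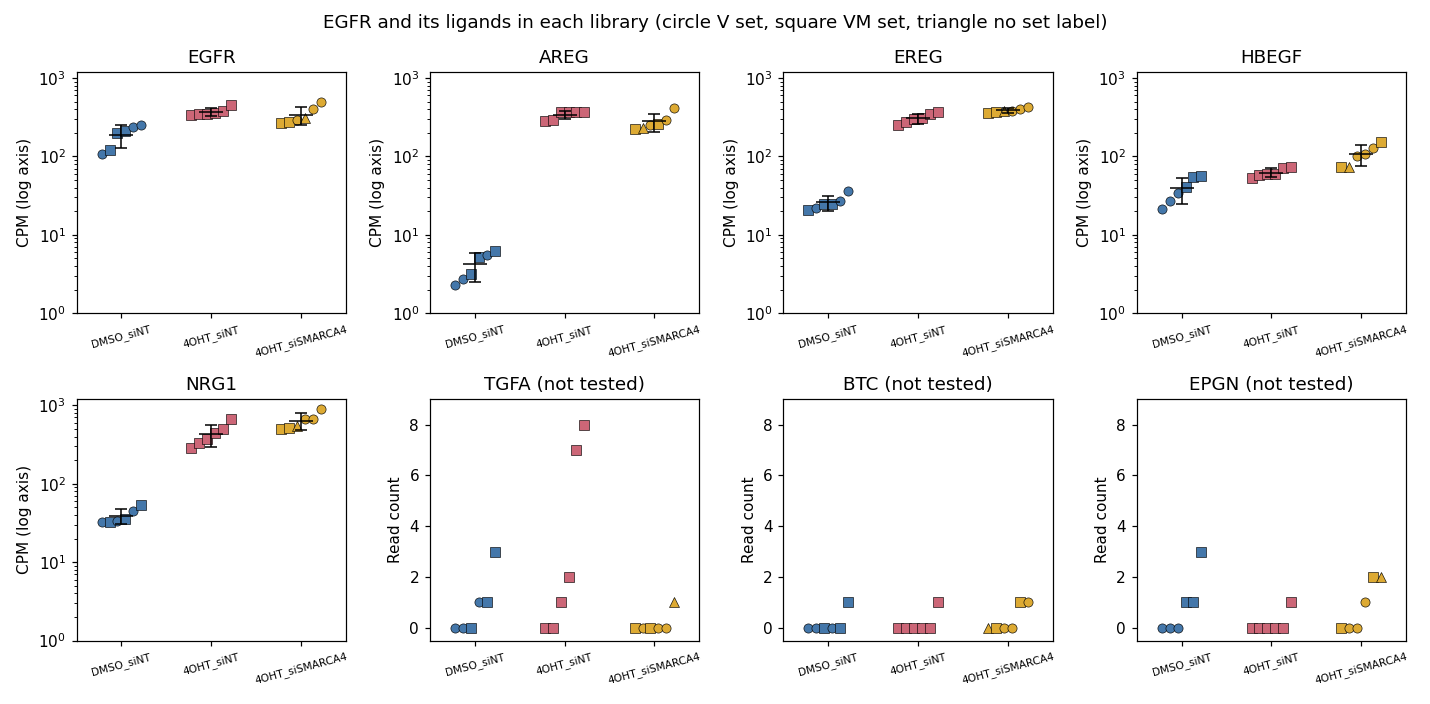
Level of each gene in each library of the 3 groups, in CPM on a log axis for the 5 tested genes (black bar and whiskers, mean and SD over 6 libraries) and as read counts for the 3 genes that were too low to test. Circles are V sets, squares VM sets and the triangle the library without a set label. AREG, EREG and NRG1 sit far above DMSO_siNT in both senescent groups, and no point of TGFA, BTC or EPGN exceeds 8 counts.

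SMARCA4 knockdown was compared next within senescent cells, 4OHT_siSMARCA4 against 4OHT_siNT. HBEGF rose by 1.71-fold and was the only one of the 5 tested genes to be called, against 10.6% of all genes called and 4.99% called higher. It was also the only one whose libraries lay all above those of 4OHT_siNT, which held for 5.12% of genes tested. For the receptor and the other 3 ligands the means of the groups differed by less than 1.5-fold. The call depended on the libraries in the fit, and without DMSO_siNT 4-2V, which belongs to neither group but enters the shared estimate of spread, 3 of the 5 genes (HBEGF, EREG and NRG1) were called higher, where 11.7% of all genes tested in that fit were called higher and 12.9% lower.

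HBEGF in 4OHT_siSMARCA4 measured 73.1 (2-3VM), 73.8 (2-unlabelled), 103 (2-3V), 109 (4-3V), 129 (4-2V) and 154 CPM (4-2VM), all above the highest 4OHT_siNT library at 72.5 CPM. The 3 libraries with siSMARCA4_4 were above the 3 with siSMARCA4_2, and the lowest 2 were within 2 CPM of the top of 4OHT_siNT. The mean was 107 ± 31.5 CPM against 62.3 ± 8.16 CPM, a log2 difference of 0.78 ± 0.22 (95% interval 0.32 to 1.23, adjusted p = 0.0259). The VM sets alone gave 0.84 (adjusted p = 0.00949), from 2 knockdown libraries that lay far apart, at 73.1 and 154 CPM. Without DMSO_siNT 4-2V the difference was 0.77 ± 0.18 (adjusted p = 0.00468). Leaving out single libraries ended the call for 4OHT_siNT 2-1VM (adjusted p = 0.0668), 2-2VM (0.0557), 2-3VM (0.0562) and 4-1VM (0.0602), and for 4OHT_siSMARCA4 4-2VM (0.0843) and 4-2V (0.0522), with log2 differences that stayed between 0.64 and 0.75. The call was also lost with siSMARCA4_2 alone (0.41, adjusted p = 0.354), against siNT 2 alone (0.90, adjusted p = 0.102) and against siNT 4 alone (0.65, adjusted p = 0.229).

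EREG had 363 to 423 CPM in 4OHT_siSMARCA4, with a median of 382 CPM, against 252 to 374 CPM in 4OHT_siNT. The ranges overlapped through 1 library of 4OHT_siNT, 2-3VM, which lay above the 2 lowest of the knockdown group. The log2 difference was 0.33 ± 0.13 (95% interval 0.06 to 0.59, adjusted p = 0.106). It passed the threshold without DMSO_siNT 4-2V (0.32 ± 0.09, adjusted p = 0.0140) and with the 2 groups fitted alone (0.33, adjusted p = 0.0134), and was 0.23 (adjusted p = 0.233) within VM sets.

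NRG1 had 503 (4-2VM), 512 (2-3VM), 546 (2-unlabelled), 674 (2-3V), 679 (4-3V) and 908 CPM (4-2V) in 4OHT_siSMARCA4. The 3 V libraries were the highest, and the 3 others fell within the range of 4OHT_siNT, which had no V library. The log2 difference was 0.56 ± 0.20 (95% interval 0.15 to 0.97, adjusted p = 0.0772). It passed the threshold without DMSO_siNT 4-2V (0.55 ± 0.19, adjusted p = 0.0366), without 4OHT_siNT 4-2VM (0.71, adjusted p = 0.0224), with the 2 groups fitted alone (0.56, adjusted p = 0.0359) and against siNT 2 alone (0.94, adjusted p = 0.0183). Within VM sets it was 0.21 (adjusted p = 0.580).

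AREG had 223 (4-2VM), 233 (2-unlabelled), 254 (4-3V), 257 (2-3VM), 290.0 (4-2V) and 420.3 CPM (2-3V) in 4OHT_siSMARCA4. The 4 lowest were below every 4OHT_siNT library and the highest was above them all. The log2 difference was -0.28 ± 0.20 (95% interval -0.70 to 0.13, adjusted p = 0.411), and -0.29 ± 0.17 without DMSO_siNT 4-2V (adjusted p = 0.218). In the VM sets alone, with 2 knockdown libraries, AREG was called lower, by a log2 value of -0.52 (adjusted p = 0.0362), and with the unlabelled library added -0.53 (adjusted p = 0.00701). The rest of the knockdown group, the V libraries, averaged 321 ± 87.4 CPM (n = 3).

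EGFR had 271 (4-2VM), 272 (2-3VM), 288 (2-3V), 307 (2-unlabelled), 398 (4-3V) and 491 CPM (4-2V) in 4OHT_siSMARCA4. The 4 lowest were below every 4OHT_siNT library and the highest above them all. The log2 difference was -0.14 ± 0.20 (95% interval -0.55 to 0.28, adjusted p = 0.730), and -0.14 ± 0.16 without DMSO_siNT 4-2V (adjusted p = 0.539). The VM sets alone gave -0.47 (adjusted p = 0.0559), and with the unlabelled library added it was called lower, -0.41 (adjusted p = 0.0358). With siSMARCA4_4 alone its sign turned, to 0.06 (adjusted p = 0.965).

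**Figure D2:**
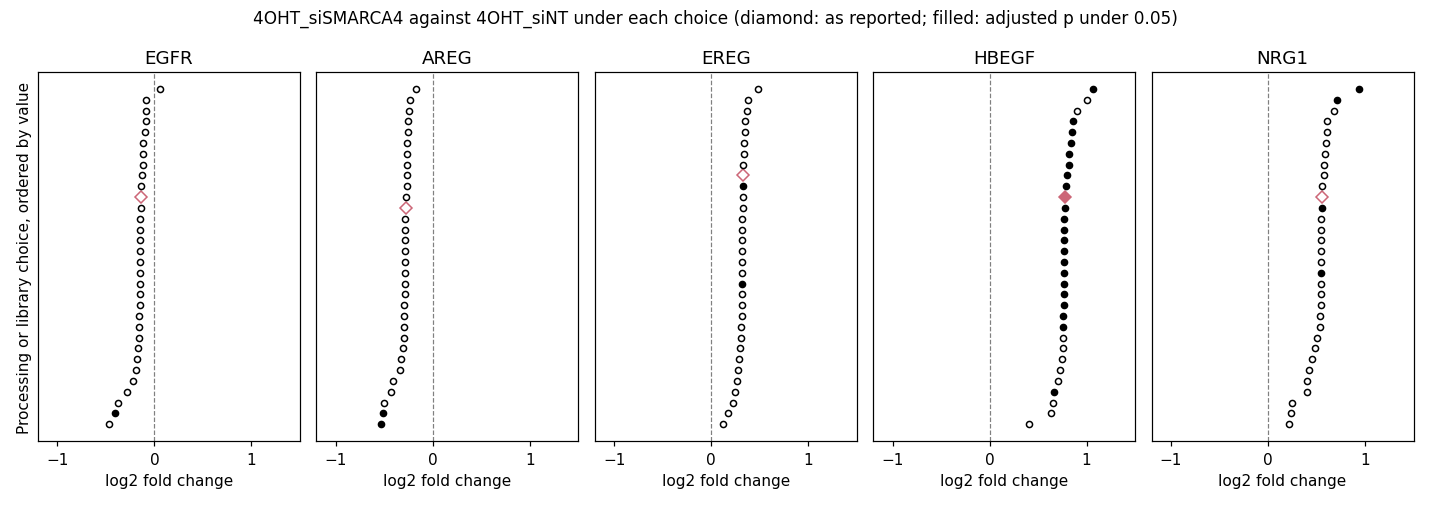
The log2 difference of each tested gene between 4OHT_siSMARCA4 and 4OHT_siNT under every choice of libraries and processing that was run, ordered by value within a panel (the vertical position has no unit). Diamonds are the values as reported, circles the alternatives, and filled symbols have an adjusted p under 0.05. HBEGF, EREG and NRG1 stay above 0 and AREG below 0 under all of them, and EGFR crosses 0 under 1.

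The siRNAs of an arm were compared in a fit with the siRNA number as part of the group. For siNT 2 against siNT 4 in 4OHT cells 0 of the 5 genes were called and for siSMARCA4_2 against siSMARCA4_4 likewise 0, where 0.0732% and 0.00732% of all genes tested were called. DESeq2 called 0 members in both. At an unadjusted p under 0.05, which 10.6% and 6.43% of all genes tested had, there was 1 member in each, NRG1 between the control siRNAs, with a log2 difference of -0.70 ± 0.22 (adjusted p = 0.231), and HBEGF between the SMARCA4 siRNAs, with -0.64 ± 0.28 (adjusted p = 0.761). The 95% intervals were -1.16 to -0.24 and -1.24 to -0.03, so the siRNAs were not shown to act alike.

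Against DMSO_siNT, 4OHT_siSMARCA4 had higher levels of all 5 tested genes, where 23.3% of genes tested were called higher. No library of the groups overlapped for any of the 5, which in this direction held for 14.3% of genes tested. This comparison shares DMSO_siNT with the first and 4OHT_siSMARCA4 with the second. Log2 differences were 6.06 ± 0.25 for AREG (adjusted p = 4.99e-13), 4.03 ± 0.22 for NRG1 (adjusted p = 1.91e-11), 3.90 ± 0.14 for EREG (adjusted p = 9.75e-14), 1.45 ± 0.22 for HBEGF (adjusted p = 1.74e-05) and 0.84 ± 0.20 for EGFR (adjusted p = 0.00151). Without DMSO_siNT 4-2V all 5 were called higher again, as were 28.7% of all genes tested in that fit. The values were then 6.14 ± 0.24 for AREG (adjusted p = 2.78e-14), 3.99 ± 0.23 for NRG1 (adjusted p = 6.22e-12), 4.02 ± 0.11 for EREG (adjusted p = 2.17e-16), 1.32 ± 0.20 for HBEGF (adjusted p = 8.08e-06) and 0.72 ± 0.17 for EGFR (adjusted p = 0.000937). Within V sets, which 4OHT_siNT lacked, EGFR was 0.98 higher with an adjusted p of 0.122, so its call did not hold there.

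**Figure D3:**
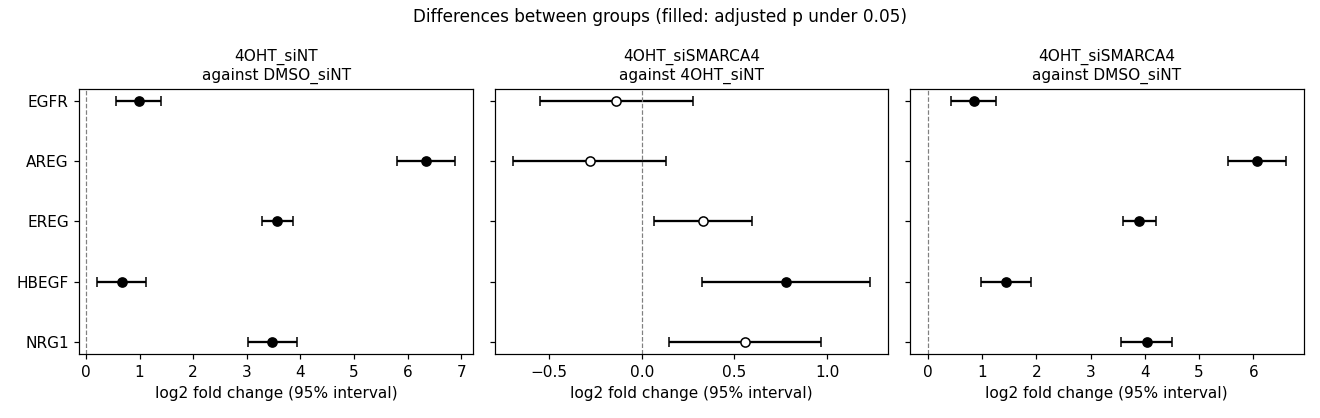
Log2 fold change of the 5 tested genes in the 3 comparisons, with 95% intervals and a narrower axis in the middle panel. Filled points have an adjusted p under 0.05. All 5 are filled against DMSO_siNT in both senescent groups, and HBEGF alone is filled for knockdown against control siRNA.

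Levels of different genes were set side by side per kb of the canonical transcript in GENCODE. In DMSO_siNT the receptor led, with a median of 20.6 CPM per kb (range 10.7 to 25.4), followed by HBEGF with 15.95 (9.17 to 23.8), EREG with 5.39 (4.44 to 7.95), AREG with 3.42 (1.85 to 5.03) and NRG1 with 2.90 (2.73 to 4.48). EGFR and HBEGF overlapped, as did each neighbouring pair from EREG downwards, while HBEGF and EREG did not. In 4OHT_siNT the order was AREG with 296 (228 to 301), EREG with 65.6 (54.5 to 80.9), EGFR with 35.7 (34.3 to 45.3), NRG1 with 34.1 (24.1 to 55.2) and HBEGF with 25.1 (22.4 to 30.7). AREG stood clear of all the others. EREG did not overlap with EGFR, but its lowest library lay just below the highest of NRG1, and EGFR, NRG1 and HBEGF overlapped with their neighbours. In 4OHT_siSMARCA4 the order was AREG with 207 (181 to 341), EREG with 82.8 (78.6 to 91.7), NRG1 with 50.9 (41.9 to 75.8), HBEGF with 44.8 (31.0 to 65.2) and EGFR with 30.1 (27.3 to 49.6), and here NRG1, HBEGF and EGFR overlapped with their neighbours. With the length of all annotated exons in place of 1 transcript, HBEGF came before NRG1 in both senescent groups and no other rank changed.

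**Figure D4:**
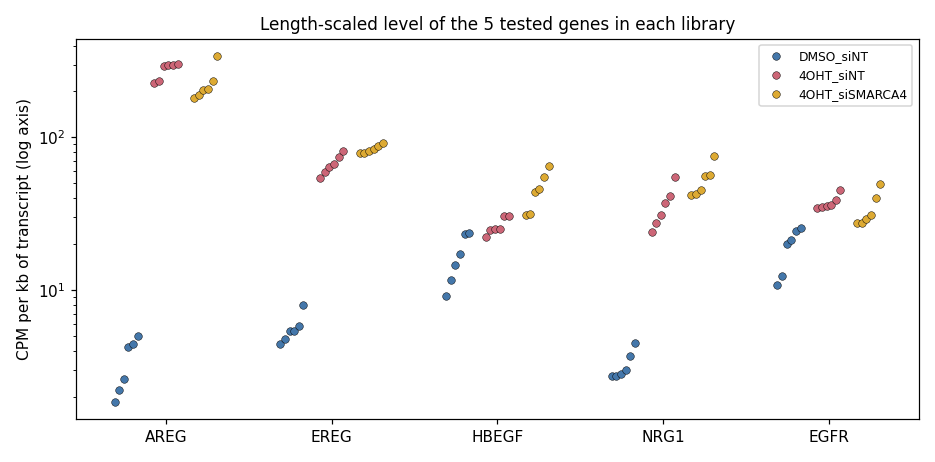
Length-scaled level of the 5 tested genes, in CPM per kb of the canonical transcript on a log axis, with 1 point per library. EGFR and HBEGF are the highest genes in DMSO_siNT, and AREG and EREG the highest in both senescent groups.

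The genes whose pattern over all 18 libraries was most like each tested member were found by the root-mean-square difference of centred log2 CPM, where 0 is the same pattern. For EGFR they were PARP4 (0.17), CDK14 (0.18) and SSH2 (0.18). For AREG they were BMP2 (0.43), TMEM156 (0.55) and CBLN2 (0.60). EREG had OTUB2 (0.30), F2RL1 (0.30) and IER3 (0.31), HBEGF had ORAI1 (0.29), STEAP1 (0.33) and CRLF3 (0.34), and NRG1 had GFPT2 (0.28), CYP19A1 (0.37) and AMPD3 (0.37). Among the members the closest pair was EREG and NRG1 (0.45) and the farthest EGFR and AREG (2.55). The measure weighs the large step between DMSO_siNT and the senescent groups most.

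A wider list of 28 genes of the pathway covered other ligands, the other receptors, ligand shedding, adaptors and other signalling proteins close to the receptor, inhibitors and receptor turnover, and partners of HBEGF. Of these, 22 could be tested. With senescence 10 rose, 4 fell and 8 were not called, where 52.8% of all genes tested were called (23.9% higher and 28.9% lower). The median log2 difference of the 22 was 0.25, against -0.05 over all genes tested. Without DMSO_siNT 4-2V, 12 rose and 4 fell, with PTPN11 (0.28 ± 0.12, adjusted p = 0.0494) and USP8 (0.20 ± 0.07, adjusted p = 0.0166) added, where 27.9% of all genes tested in that fit were called higher and 30.3% lower.

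Of the other ligands, EGF, the founding member of the family, fell from 3.29 ± 1.13 to 0.324 ± 0.194 CPM (log2 difference -3.31 ± 0.36, adjusted p = 2.28e-07). It had 17 to 75 counts per library in DMSO_siNT and 1 to 8 in 4OHT_siNT. EGF thus passed the filter through DMSO_siNT, and its senescent level lay near the limit of 3 counts. The size of its fall is therefore uncertain. NRG2, NRG3 and NRG4 had at most 8 counts in any library. ERBB2, the receptor without a ligand of its own that pairs with the others, fell from 89.5 to 34.5 CPM (log2 difference -1.38 ± 0.20, adjusted p = 1.31e-05). The groups overlapped only through DMSO_siNT 4-2V (38.4 CPM), as the next lowest DMSO_siNT library had 83.3 CPM and 4OHT_siNT at most 41.0 CPM. Without DMSO_siNT 4-2V the difference was -1.52 ± 0.14 (adjusted p = 6.01e-09). ERBB3 and ERBB4, which bind NRG1, had at most 8 and 3 counts in any library and were not tested. The rise of NRG1 was thus measured in cells with next to no messenger RNA of the receptors that bind it.

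Among the genes of ligand shedding, RHBDF1 and RHBDF2, which encode the iRhom proteins that guide ADAM17 to the cell surface, rose by 1.77 ± 0.22 (adjusted p = 1.57e-06) and 1.68 ± 0.34 (adjusted p = 0.000351) on the log2 scale. ADAM10 fell by 0.41 on that scale (adjusted p = 0.00585), and ADAM17, the main protease of AREG, EREG and HBEGF precursors, had 39.04 CPM in DMSO_siNT and 37.6 CPM in 4OHT_siNT (adjusted p = 0.797). RHBDL2 was too low to test. Both membrane partners of HBEGF rose, CD9 by 1.33 ± 0.14 (adjusted p = 1.96e-07) and CD44 by 0.39 ± 0.13 (adjusted p = 0.0170).

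Of 6 genes for adaptors and other signalling proteins close to the receptor, GRB2 (0.44 ± 0.07, adjusted p = 5.99e-05) and SHC1 (0.75 ± 0.16, adjusted p = 0.000777) rose in log2 CPM. Both encode adaptors that couple the receptor to RAS. GAB1 fell (-0.56 ± 0.17, adjusted p = 0.0110). SOS1, SOS2 and PTPN11 were not called. Of 8 genes that limit the receptor or route it for recycling or breakdown, 4 rose and 0 fell. Over all genes tested, 23.9% were called higher and 28.9% lower. ERRFI1, an inhibitor that binds the kinase domain of EGFR, went from 58.6 to 203 CPM (1.80 ± 0.11 on the log2 scale, adjusted p = 1.58e-10). CBL and CBLB, ubiquitin ligases of the activated receptor, rose by 0.69 ± 0.17 (adjusted p = 0.00261) and 1.35 ± 0.22 (adjusted p = 3.11e-05), and SH3KBP1, a partner of CBL, by 1.08 ± 0.12 (adjusted p = 3.10e-07). LRIG1, STAMBP, USP8 and RNF41 were not called.

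With SMARCA4 knockdown 0 of the 22 genes were called by edgeR, against 10.6% of all genes tested, with a median log2 difference of -0.08 against 0.01 over all genes tested. At an unadjusted p under 0.05 there were 3 (CBLB, CD9 and RHBDF1), against 24.7% of all genes tested, and DESeq2 called 1, CBLB, against 14.9%. Without DMSO_siNT 4-2V, 2 were called lower, CBLB (-0.57 ± 0.15, adjusted p = 0.00802) and RHBDF1 (-0.50 ± 0.15, adjusted p = 0.0185), where 12.9% of all genes tested in that fit were called lower. ERRFI1 had 202 CPM in the knockdown group and 203 CPM in 4OHT_siNT. Against DMSO_siNT, 4OHT_siSMARCA4 had 9 of the 22 higher and 4 lower, where 23.3% of all genes tested were called higher and 27.3% lower. Without DMSO_siNT 4-2V these were 11 and 4, against 28.7% called higher and 30.5% lower over all genes tested in that fit.

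**Figure D5:**
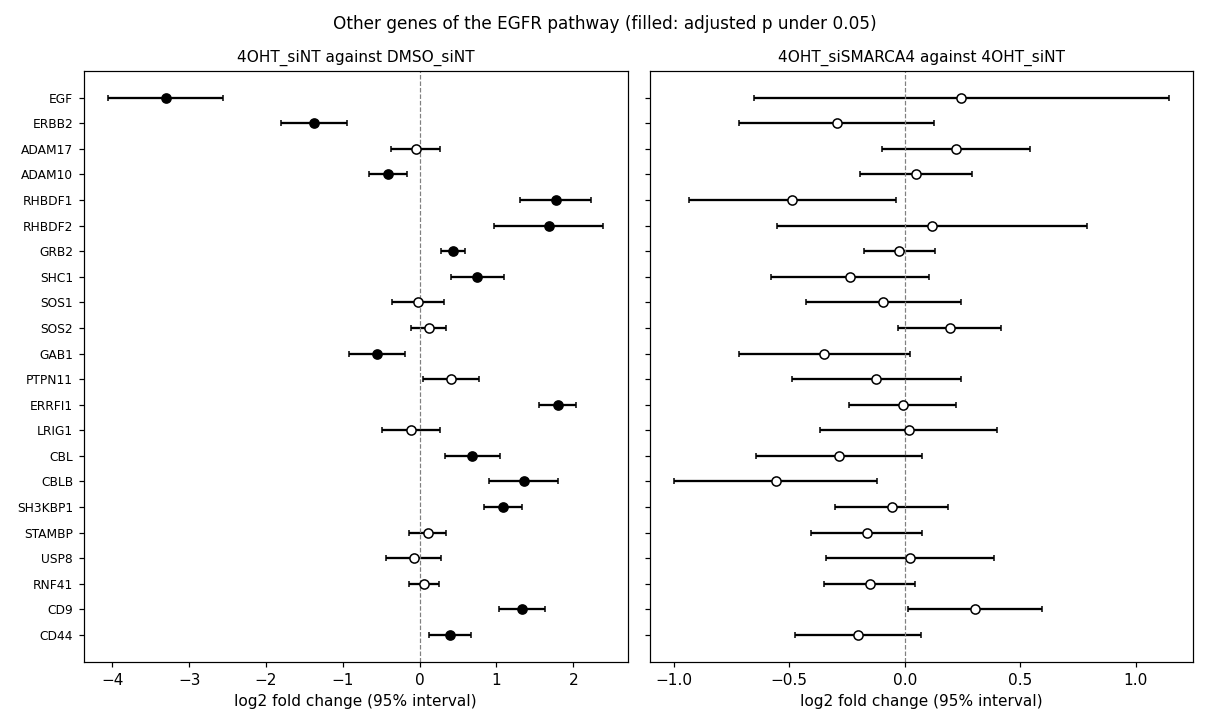
Log2 fold change, with 95% intervals, of the 22 tested genes of the wider list with senescence (left) and with SMARCA4 knockdown in senescent cells (right, on a narrower axis). Filled points have an adjusted p under 0.05. On the left 10 are filled above 0 and 4 below 0, and on the right none is filled.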

How the data were processed

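The authors sequenced poly(A)-selected, strand-specific libraries as single-end reads. The submitters' processing notes name STAR 2.7.8a, DESeq2 1.36.0 and the build hg38. The counting program, annotation and use of strand are not given in the sources used here. The deposited table holds raw counts, which the authors had not normalized, in 36 columns of 28266 genes. The 2 lanes of a library were summed, giving 18 libraries. Of 29 labelled samples 17 matched a column, the others were not analysed here, and 1 further column, a knockdown library with siRNA 2 whose set name stands in no matching title, was used as a replicate without a set.

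Genes were filtered with filterByExpr (minimum count 10, 13136 genes kept), scaled by TMM and tested by quasi-likelihood (edgeR 4.0.16, R 4.3.3), all libraries in 1 fit without covariate, with Benjamini-Hochberg adjustment and calls at 0.05. Standard errors and 95% intervals come from the F statistic, and levels are CPM on the TMM scale. Log2 CPM for the likeness of patterns used a prior count of 2. The siRNA fit had 6 levels and 13659 genes. The common biological coefficient of variation was 23.3%. Intervals and limits of 3 counts cover the spread between libraries and counting error only.

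Named genes are the 8 members, the wider list of 28, the 3 genes most like each tested member, and the genes of the checks. The members and lists were chosen with earlier results of these data known. On simulated counts for senescence edgeR recovered 88.9% of 199 changed genes among 13047, with 3.80% of calls false, and DESeq2 1.42.0 90.5%, with 13.9% false. The simulation changed few genes, each by more than HBEGF changed with senescence or knockdown. It had no effect of set or siRNA and no library that stood apart, so these rates need not hold for the data. Pairs of libraries within a group (45) differed with a chi-square per degree of freedom of 2.33 to 315, against 1.19 to 1.27 for lanes of a library, so none was treated as a duplicate. Set labels and siRNA numbers were tried as alternatives, with DESeq2, other scaling, other filters, subsets and leaving out each library. Subsets of VM sets with the unlabelled library, V sets alone, and the wider list without DMSO_siNT 4-2V were chosen after seeing the data.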

Additional observations from a re-analysis of the deposited data

How the results depend on the processing

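Across alternatives that kept all libraries or took subsets, 153 values of the log2 differences of the tested members kept their direction and their side of the threshold, 6 came past it, 10 fell short of it and 1, EGFR with siSMARCA4_4 alone (0.057), turned sign. With single libraries left out the numbers were 261, 3, 6 and 0. The calls of AREG, EREG, NRG1 and EGFR with senescence held under every alternative run. That of HBEGF with senescence was lost within VM sets, with the unlabelled library added to them, with siNT 2 or siNT 4 in both arms and with the set block, at adjusted p-values of 0.0665 to 0.220. For knockdown, members called came to 0 with the set block, with siSMARCA4_2 alone and with siNT 4 alone as control. With siNT 2 alone as control the count stayed at 1, but HBEGF lost its call (adjusted p = 0.102) and NRG1 gained one. It came to 2 within VM sets and to 3 with the unlabelled library added or with the 2 groups fitted alone, and leaving out single libraries gave 0 to 3. Over all genes, 236 to 4064 were called for knockdown across these alternatives and 923 to 3269 with single libraries left out, against 1397 as reported. Shares of genes tested were not computed for each of these fits.

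Counts over all genes moved by more than 1.5 times for knockdown, from 1397 to 236 with the block, 2858 within VM sets, 4064 with the unlabelled library added, 3405 with the 2 groups alone, 654 against siNT 2 alone, 601 against siNT 4 alone and 254 with siSMARCA4_4 alone, and leaving out single libraries gave 923 to 3269, the last without DMSO_siNT 4-2V. Within V sets 2732 genes were called for knockdown cells against DMSO_siNT, against 6635 over all sets. DESeq2 called 188 genes between the control siRNAs and 47 between the SMARCA4 siRNAs, against 10 and 1. The causes were not tested.

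Set labels were not used to pair the samples, since no source says that they do. Correlations of deviations between libraries of a set were -0.23 to 0.27. They were above 0 for set 3VM (0.16, 0.27 and 0.15) and below 0 for sets 2VM and 2V. With so few libraries of a set in each group, whether sets were paired cannot be told from them. With set labels entered as a replicate block, 4356 genes were called with senescence, 236 with knockdown and 0 between the SMARCA4 siRNAs. In that block fit HBEGF was 0.55 (adjusted p = 0.123) with senescence and 1.00 (adjusted p = 0.110) with knockdown. TGFA, BTC and EPGN failed the filter with a minimum count of 10, and at this depth levels below the limit of 3 counts could not be told from 0.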

Other observations

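AREG and EREG are neighbours on chromosome 4 and both rose with senescence, but their counts in the same library, a ratio that no scaling between libraries touches, stood differently in the 3 groups. AREG over EREG was 0.101 to 0.303 (median 0.139) in the 6 DMSO_siNT libraries, 0.910 to 1.34 (median 1.11) in 4OHT_siNT and 0.601 to 1.09 (median 0.662) in 4OHT_siSMARCA4. DMSO_siNT lay below both senescent groups, and all knockdown libraries but 2-3V lay below the lowest 4OHT_siNT library. NRG1 over EREG showed no such step, with medians of 1.48, 1.49 and 1.52 and overlapping ranges. The ratios were chosen after the values were seen and were not tested.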
